A study of Mus musculus with 48 samples.

Results

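The libraries described here measured which RNAs were recovered with Tnrc6a from mouse embryonic stem cells that had Upf1 and from cells that lacked it. They are 24 of the 48 libraries of the series and were chosen by their labels, 12 as HA-Tnrc6a and 12 as HA-Tnrc6a_Upf1KO. All cells were of the 129S6/SvEvTac strain, carried a GFP_5xT71BS reporter and a stably transfected FLAG-Cas9 gene, and grew on gelatin in medium with serum and LIF. The first group has the genotype GFP_5xT71BS, HA-AVI-Tnrc6a, and the second carries Upf1-/- in addition. Each genotype was sampled in experiments 3 and 4, with 3 lysate libraries (inputs) and 3 libraries of RNA eluted from HA beads (IPs) per experiment. The 12 libraries of untagged cells and the 12 of HA-Tnrc6a cells without Ago2 are used only as independent measures. The labels do not say how many clones stand behind a genotype, so a difference between clones and the loss of Upf1 cannot be told apart, and p-values measure the spread between dishes of the same cells.

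Tnrc6a is a GW182 protein. It binds Argonaute proteins through glycine-tryptophan repeats, and it brings the CCR4-NOT and PAN deadenylases to mRNAs that Argonaute has found through a microRNA. Upf1 is the RNA helicase at the centre of nonsense-mediated decay, which degrades mRNAs whose translation stops too early or far from a normal 3′ end. In mouse embryonic stem cells many of the most abundant microRNAs come from the miR-290-295 cluster. A member of the miR-302 cluster that shares their seed is shown beside them. They are given because a list of microRNA targets is described later, although its members need not all rest on this seed. The sequences are mature microRNAs from RefSeq (GRCm38.p6), with the seed, bases 2 to 8, in capitals. The first 3 lie on the plus strand at chr7:3218968-3218989, chr7:3220691-3220712 and chr7:3220815-3220837, and the fourth on the plus strand at chr3:127545275-127545297.
mmu-miR-291a-3p: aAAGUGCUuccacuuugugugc
mmu-miR-294-3p: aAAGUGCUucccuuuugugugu
mmu-miR-295-3p: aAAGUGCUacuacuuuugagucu
mmu-miR-302b-3p: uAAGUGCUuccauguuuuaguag

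The question is whether an RNA was recovered with Tnrc6a more or less efficiently once Upf1 was gone. The recovery effect is the log2 change of the IP between genotypes (the IP part) less the log2 change of the input (the input part), formed within each experiment and averaged. A gene that is simply more abundant in the knockout therefore has no recovery effect if its IP rises in step. Levels are in CPM, counts scaled to a common library size, and a recovery ratio is the CPM of an IP library over the mean CPM of the 3 inputs of its group. The labels name no RNA added to equal amount, so each ratio is relative to the other RNAs of the same libraries. Tests are edgeR quasi-likelihood tests over 19966 genes, and a gene is called at a Benjamini-Hochberg adjusted p under 0.05.

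Inputs held 15829009 to 19412035 counts in experiment 3 and 26647238 to 37179105 in experiment 4, and IPs 15628077 to 18344233 and 25724085 to 33002553. The third HA-Tnrc6a input of experiment 3 stood apart from the first and second, with a chi-square per degree of freedom of 34.3 and 28.9 against them, beside 2.66 between them. Markers of embryonic stem cells, such as Pou5f1 and Nanog, summed to between 6884 and 8338 CPM in every group. Those of fibroblasts summed to 14.6 to 36.9, of nerve cells to 49.4 to 108 and of mesoderm to 0.989 to 5.49 CPM. The 6 primitive endoderm markers summed to 35.3 to 71.9 CPM in HA-Tnrc6a libraries and 12.2 to 138 in knockout libraries; their part in the results was not tested. In bulk RNA, fewer cells of a type and less RNA per cell cannot be told apart.

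The level of Upf1 mRNA did not mark the knockout libraries as depleted. In the inputs it was 74.6, 74.04 and 83.1 CPM in HA-Tnrc6a and 116, 118 and 119 CPM in knockout cells of experiment 3, and 102, 98.9 and 102 against 136, 141 and 143 CPM in experiment 4. The knockout inputs were thus higher in both experiments without overlap, with an input part of 0.54. A gene-level count does not show whether the mRNA is intact, the labels do not say what was deleted, and Upf1 overlaps Gdf1 and Cers1 on the chromosome. Knockout cells are therefore those of the libraries labelled HA-Tnrc6a_Upf1KO throughout, and every direction below rests on that label. The tagged Tnrc6a mRNA was itself recovered strongly, at 272 to 484 times its input in HA-Tnrc6a cells and 291 to 349 times in knockout cells of experiment 3, and at 101 to 140 and 94.9 to 161 times in experiment 4. These ranges overlap, and the recovery effect on Tnrc6a was -0.13 ± 0.18 (adjusted p = 0.809). Ago2, the main slicing Argonaute, had recovery ratios of 4.48, 4.03 and 3.87 against 4.28, 4.24 and 4.19 in experiment 3. Averaged over both experiments its recovery effect was -0.09 ± 0.07 (adjusted p = 0.561), while in experiment 3 it had the other sign.

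Recovery differed between the genotypes for a small share of genes and by modest amounts. Of the genes tested, 896 (4.49%) were called, 583 (2.92%) recovered more and 313 (1.57%) recovered less, with median sizes of 0.34 and 0.38 on the log2 scale. For comparison, the IP part was called in 50.3% and the input part in 50.8% of genes. The direction of the 896 calls depends on how libraries are scaled. Genes that recovered more were 65.1% of calls with TMM scaling, 52.8% with RLE size factors, 22.4% with library totals and 37.3% with the authors' scaling. With each of these 4 scalings, 217 genes (1.09%) recovered more and 299 (1.50%) recovered less. Leaving out the third HA-Tnrc6a input of experiment 3 left 594 calls, 202 more and 392 less recovered.

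The 2 experiments share no library, and each repeats the comparison. The counts by experiment are contrasts of 1 joint fit of all 24 libraries, which shares its scaling and dispersions. In experiment 3, 137 genes (0.686%) recovered more and 119 (0.596%) less. In experiment 4 it was 169 (0.846%) and 106 (0.531%). Called in both were 44 genes that recovered more, which are 32.1% of the first list and 26.0% of the second, and 40 that recovered less, 33.6% and 37.7%. None was called in opposite directions. The averaged effect of each of these 44 and 40 genes stayed past the threshold in each of the 24 fits that left out 1 library. Those fits did not repeat the call in each experiment. The genes had also been selected for passing in both parts of that average, so this is no separate support. Fits of each experiment alone gave other counts, 17 more and 145 less recovered in experiment 3 and 289 and 95 in experiment 4. With those fits no more than 17 genes could be called in both as recovered more. Genes named below that lost their call in experiment 3 fitted alone included Ago4, Suox, Tmem223, Gpc2, Kdelr2, Sec62 and Utp14a. Tmed9, Zfp408 and Clk4 kept it.

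**Figure D1:**
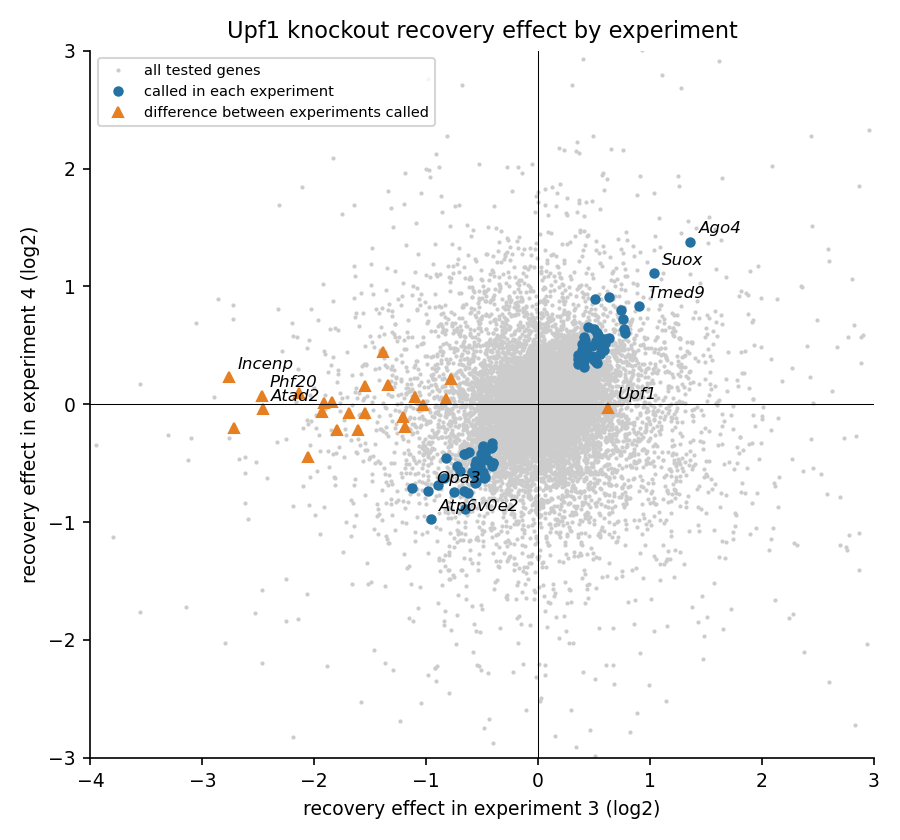
Recovery effect (log2) of each tested gene in experiment 3 (x axis) and experiment 4 (y axis); grey dots are all tested genes, blue dots genes called in each experiment and orange triangles genes whose effects differ between experiments, with 50 genes outside the axes. The blue genes lie in the lower left and upper right, and most triangles, such as Incenp and Phf20, lie far to the left and close to 0 on the y axis.

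Tmed9, a cargo receptor of vesicles between the endoplasmic reticulum and the Golgi, had the smallest p-value of all tested genes (chr13:55593135-55597697, GRCm38). Its recovery ratios were 1.18, 1.19 and 1.11 in HA-Tnrc6a and 2.10, 2.05 and 2.35 in knockout cells of experiment 3, and 1.33, 1.29 and 1.27 against 2.24, 2.40 and 2.30 in experiment 4. Every knockout IP stood above every HA-Tnrc6a IP. The recovery effect was 0.87 ± 0.06 (adjusted p = 9.82e-11), made of an IP part of 0.73 and an input part of -0.14. In untagged cells the same mRNA was recovered at 0.627 to 0.999 times its input.

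Suox, the sulfite oxidase of mitochondria (chr10:128669887-128673918), behaved alike at a low level of a few CPM. Its ratios were 1.18, 1.21 and 1.39 in HA-Tnrc6a and 2.42, 2.38 and 3.00 in knockout cells of experiment 3, and 1.70, 1.39 and 1.49 against 3.33, 3.17 and 3.43 in experiment 4. The groups did not overlap in either experiment, and the effect was 1.07 ± 0.16 (adjusted p = 3.75e-05). Without Ago2, ratios of Suox were 0.808 to 1.08, at the level of untagged cells (0.674 to 1.19).

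Zfp408, a zinc finger transcription factor (chr2:91642756-91650051), was bound in both genotypes and more so without Upf1. Its ratios were 4.93, 4.19 and 4.01 against 7.44, 7.20 and 7.34 in experiment 3 and 3.86, 3.16 and 3.03 against 6.44, 5.52 and 5.49 in experiment 4. Here nothing moved in the lysate: the IP part was 0.79, the input part 0.02 and the recovery effect 0.77 ± 0.09 (adjusted p = 7.64e-07).

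Clk4, a kinase that phosphorylates SR splicing factors (chr11:51263114-51281770, overlapping BC049762), had ratios of 2.46, 2.35 and 2.32 against 3.49, 3.10 and 3.54 in experiment 3. In experiment 4 they were 3.10, 2.63 and 2.45 against 5.75, 4.90 and 4.54, again without overlap. Its effect was 0.70 ± 0.09 (adjusted p = 2.41e-06), with an input part of -0.04. Clk4 was also recovered from untagged cells, at 1.41 to 1.65 times its input in experiment 3 and 1.74 to 2.50 times in experiment 4. Tmem223, a mitochondrial membrane protein, rose by 0.77 ± 0.11 (adjusted p = 5.15e-05) and Gpc2, a heparan sulfate proteoglycan of the cell surface, by 0.69 ± 0.11 (adjusted p = 8.64e-05; it overlaps Stag3).

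Among the genes called in each experiment were further regulators that are well expressed; Mdm4 and Klf2 are given here although the naming rule does not choose them, and were picked after their values were seen. Mdm4, an inhibitor of p53, had a recovery effect of 0.60 ± 0.08 with an IP part of 0.70 and an input part of 0.10. Klf2, a transcription factor of naive pluripotency, reached a similar effect of 0.56 ± 0.09 by another route: its input fell by 1.23 and its IP by only 0.66 on the log2 scale. Across the 44 genes called in each experiment as recovered more, the IP part was the larger of the 2 parts in 35 and the IP itself was called higher in 39. Their median IP part was 0.48 and their median input part -0.03. Among all 19966 tested genes the IP part was the larger in 10423 and the IP was called higher in 4931.

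Ago4, an Argonaute without slicing activity, had the largest effect of the genes called in each experiment, but from few lysate reads. Its inputs held 14 to 36 counts per library, under 1.2 CPM, and its IPs 45 to 66 counts in HA-Tnrc6a and 173 to 247 in knockout cells. The ratios were 5.88, 4.48 and 4.85 against 12.8, 13.5 and 12.5 in experiment 3 and 3.99, 3.42 and 2.98 against 9.07, 8.86 and 8.81 in experiment 4. They did not overlap, and the effect was 1.37 ± 0.23 (adjusted p = 0.000306). Gpr146, a G protein-coupled receptor, also rests on few lysate reads. Its effect of 1.20 ± 0.29 (adjusted p = 0.0112) was 0.23 in experiment 3 and 2.16 in experiment 4, where the knockout inputs held only 8, 10 and 1 counts, and its IP part was -0.02. Without the third knockout input of experiment 4 it was 0.88 (adjusted p = 0.0520), and without the second HA-Tnrc6a input of that experiment 1.07 (adjusted p = 0.0554).

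**Figure D2:**
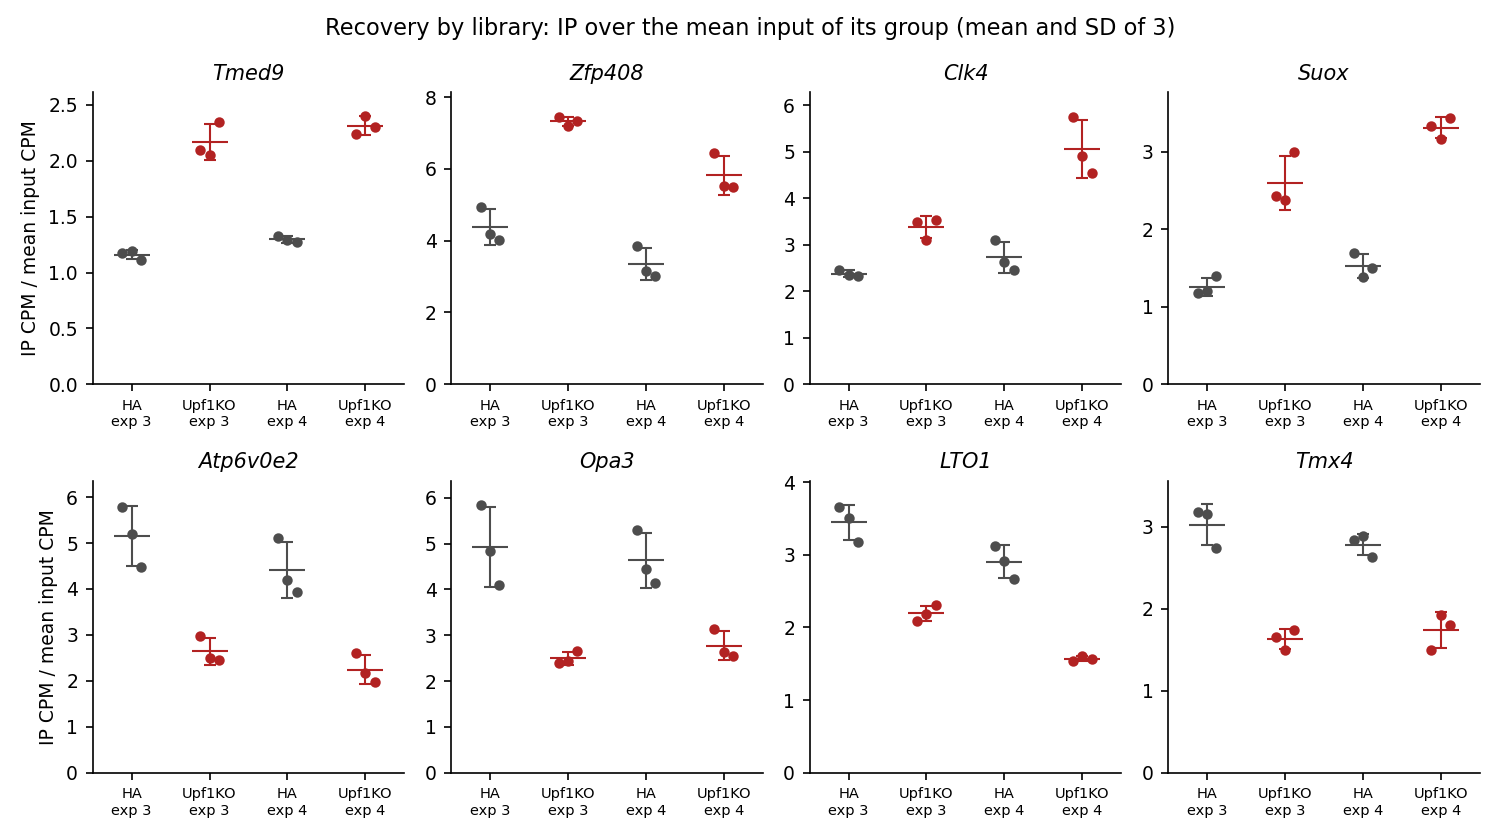
Recovery ratio of 8 genes by library (y axis, CPM of an IP over the mean CPM of its group's inputs), for HA-Tnrc6a (grey) and Upf1 knockout (red) cells of experiments 3 and 4; dots are the 3 IPs and bars their mean and SD. Tmed9, Zfp408, Clk4 and Suox are higher and Atp6v0e2, Opa3, LTO1 and Tmx4 lower in knockout cells, without overlap within an experiment.

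Atp6v0e2, a small subunit of the proton pump of lysosomes (chr6:48537569-48541801), lost the most of the genes called in each experiment as recovered less. Its ratios were 5.79, 5.19 and 4.48 in HA-Tnrc6a and 2.97, 2.50 and 2.46 in knockout cells of experiment 3, and 5.10, 4.20 and 3.94 against 2.60, 2.16 and 1.98 in experiment 4. Every knockout value was below every HA-Tnrc6a value. The effect was -0.97 ± 0.11 (adjusted p = 6.36e-07), yet the IP itself rose by 0.25. The drop in the ratio came from the lysate, where Atp6v0e2 rose by 1.21, from 6.28, 6.24 and 6.74 CPM to 16.6, 15.0 and 15.9 CPM in experiment 3.

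Opa3, a mitochondrial protein mutated in an optic atrophy (chr7:19228389-19246817, overlapping Gm25134), lost recovery from both sides. Its ratios were 5.84, 4.84 and 4.09 against 2.39, 2.43 and 2.66 in experiment 3 and 5.30, 4.45 and 4.15 against 3.14, 2.64 and 2.55 in experiment 4. The IP fell by 0.36 while the input rose by 0.50, for an effect of -0.86 ± 0.09 (adjusted p = 6.09e-07). Tmx4, a thioredoxin-like membrane protein of the endoplasmic reticulum (chr2:134594501-134644121), changed in the same way, from 3.18, 3.16 and 2.74 to 1.65, 1.50 and 1.74 in experiment 3 and from 2.83, 2.89 and 2.64 to 1.50, 1.92 and 1.80 in experiment 4 (effect -0.79 ± 0.10, adjusted p = 6.75e-06). LTO1, which helps to deliver iron-sulfur clusters to a ribosome recycling factor (chr7:144915100-144930748, overlapping Ccnd1), went from 3.65, 3.503 and 3.18 to 2.09, 2.19 and 2.30 and from 3.12, 2.92 and 2.67 to 1.54, 1.61 and 1.57 (effect -0.77 ± 0.07, adjusted p = 7.68e-09).

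Zfp451, a SUMO ligase (chr1:33761541-33815602), lost recovery through its IP, while its lysate level did not pass the test. Its ratios were 5.71, 4.99 and 4.396 against 3.05, 2.85 and 3.05 in experiment 3 and 4.06, 3.78 and 3.37 against 2.24, 2.20 and 2.27 in experiment 4, with no overlap. The IP fell by 0.65 and the input part was 0.10, for an effect of -0.75 ± 0.07 (adjusted p = 4.96e-08). Snw1, a component of the spliceosome, was similar, with an IP part of -0.46, an input part of 0.05 and an effect of -0.51 ± 0.06; it was picked after its values were seen.

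The genes that recovered less were mostly genes that had become more abundant in the lysate. Of the 40 called in each experiment as recovered less, the input was called higher in 38, and the IP part was the larger part in only 5; their median IP part was 0.007 and their median input part 0.57. Over all 313 genes that recovered less, the input was higher in 205 and lower in 24, and in 170 the input was higher while the IP was not lower. Over the 583 that recovered more, the IP was higher in 423 and lower in 33, and the inputs were higher in 133 and lower in 218. Among all 19966 tested genes the input was higher in 4465 and lower in 5674, and the IP was higher in 4931 and lower in 5103. In 4430 of them the input was higher while the IP was not lower, and in 10423 the IP part was the larger. Both the IP and the input enter the recovery effect itself, so these counts describe the calls and are not independent of them.

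**Figure D3:**
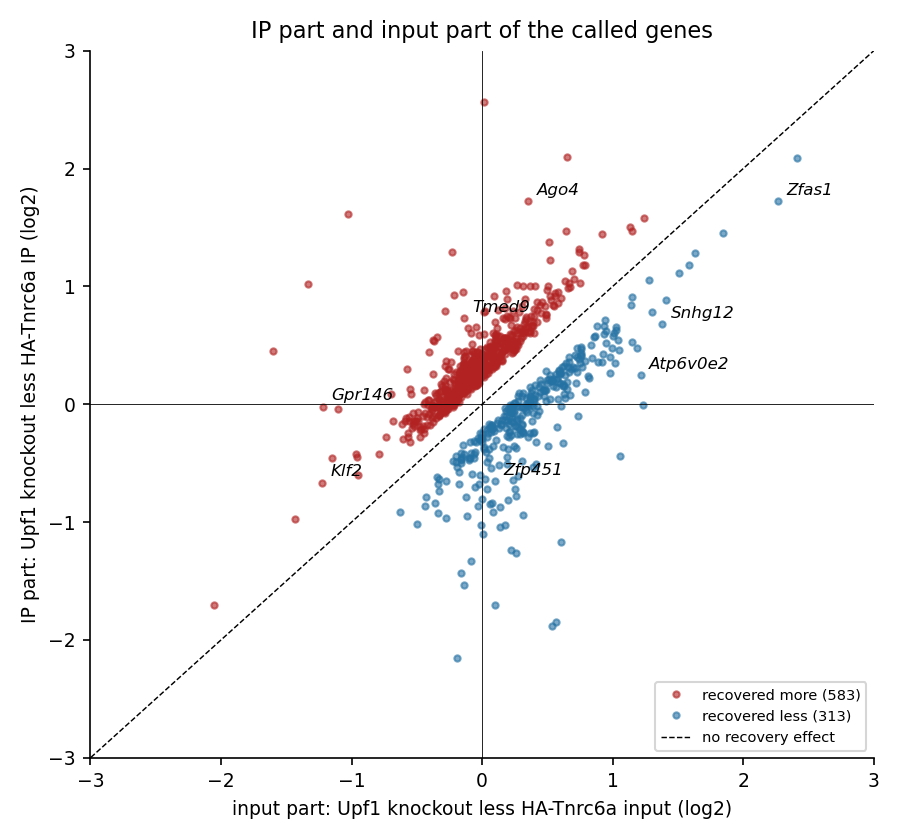
IP part (y axis) against input part (x axis), both log2, for the 583 genes that recovered more (red) and the 313 that recovered less (blue); the dashed line marks equal parts, and 2 called genes lie outside the axes. Most red genes lie above 0 on the y axis around an input part of 0, and most blue genes lie to the right with an IP part around 0.

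A comparison free of shared libraries takes the lysate change from one experiment and the recovery effect from the other. Both are contrasts of the joint fit, which shares its scaling and dispersions. Of the 391 genes whose input rose at least 2-fold in experiment 3, 11 (2.81%) recovered less in experiment 4, and of the 2749 whose input rose by less than that, 69 (2.51%) did. Of the 12825 genes whose input did not pass the test it was 18 (0.140%), and of the 3249 and 752 whose input fell by less or at least 2-fold it was 6 and 2. The share over all genes in experiment 4 was 0.531%. Median effects there were -0.06 where the input rose at least 2-fold and 0.01 where it did not pass. In experiment 3, by the input change of experiment 4, they were 0.01 and 0.04. With the experiments exchanged, 10 of 471 (2.12%) and 50 of 3146 (1.59%) genes with a higher input in experiment 4 recovered less in experiment 3, beside 53 of 12235 (0.433%) with no called change and 6 of 3464 (0.173%) with an input lower by less than 2-fold.

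Among genes with a higher input, the shares that recovered less and that recovered more were both larger for RNAs bound in Ago2 knockout cells than for the others. Among genes with no called input change the shares that recovered less went either way, and among those with a lower input they were no larger. The share that recovered more was larger for bound RNAs in every input class. Binding was read from libraries outside the comparison. It was an IP to input ratio in Ago2 knockout cells at least 2-fold above that in untagged cells, which 3517 genes (17.6%) reached. RNAs whose recovery needs Ago2 can therefore fall among the others. Mdm4 did, with a log2 enrichment of 0.92 over untagged cells and an Ago2 knockout recovery effect of -1.19. Of 613 such genes with a higher input in experiment 3, 38 (6.20%) recovered less and 10 (1.63%) more in experiment 4. Of the 2527 other genes with a higher input it was 42 (1.66%) and 14 (0.554%). Of 2384 bound genes with no called input change, 3 (0.126%) recovered less and 56 (2.35%) more, against 15 (0.144%) and 44 (0.421%) of 10441 others. Of 520 with a lower input, 1 (0.192%) recovered less and 25 (4.81%) more, against 7 (0.201%) and 20 (0.575%) of 3481 others. The exchanged comparison is given with bound genes first each time. Where the input was higher, 32 of 710 (4.51%) and 28 of 2907 (0.963%) recovered less and 13 (1.83%) and 25 (0.860%) more. Where it did not pass, 13 of 2225 (0.584%) and 40 of 10010 (0.400%) recovered less and 21 (0.944%) and 49 (0.490%) more. Where it was lower, 0 of 582 and 6 of 3532 (0.170%) recovered less and 10 (1.72%) and 19 (0.538%) more. Bound genes made up 41.3% of those that recovered more, 32.9% of those that recovered less, and 65.0% of the 40 that recovered less in each experiment. These shares were not tested, and the measure also rests on HA-tagged Tnrc6a. Levels of bound and other genes were not compared, and level moves with the power of the test.

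Over all 3517 bound genes, recovery as such did not separate the genotypes. The median ratio was 2.98, 2.83 and 2.57 in HA-Tnrc6a and 2.65, 2.55 and 2.83 in knockout IPs of experiment 3, and 2.81, 2.46 and 2.35 against 2.87, 2.59 and 2.50 in experiment 4. These ranges overlap in both experiments.

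Of the transcripts that nonsense-mediated decay is known to degrade, several small nucleolar RNA host genes rose in the lysate by more than in the IP. Of 29 tested on that list, the input was higher in 17 and lower in 8, beside 22.4% and 28.4% of all genes. By edgeR 7 (24.1%) recovered less and 1 (3.45%) more, beside 1.57% and 2.92% of all genes, and 11 effects were above 0, with a median recovery effect of -0.07 beside 0.02 over all genes. The 7 were Atf3, a stress-induced transcription factor, and 6 host genes of small nucleolar RNAs, whose spliced transcripts carry short reading frames. Zfas1 had inputs of 79.4, 73.4 and 71.1 CPM in HA-Tnrc6a and 366, 382 and 341 CPM in knockout cells of experiment 3, and 50.9, 46.8 and 50.8 against 233, 237 and 238 CPM in experiment 4. Its recovery ratios were 1.24, 1.19 and 1.12 against 0.929, 0.898 and 0.740, and 1.27, 1.04 and 0.946 against 0.784, 0.700 and 0.647. The input rose by 2.27 and the IP by 1.73, for an effect of -0.54 ± 0.09 (adjusted p = 0.000155).

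Snhg1 rose in the inputs from 109, 102 and 103 to 244, 242 and 222 CPM in experiment 3, and its ratios went from 1.27, 1.15 and 1.04 to 0.885, 0.817 and 0.629. Its effect was -0.62 ± 0.09 (adjusted p = 5.47e-05). Snhg12 had ratios of 0.916, 1.01 and 0.899 against 0.672, 0.653 and 0.453 in experiment 3 and 0.772, 0.640 and 0.663 against 0.385, 0.425 and 0.437 in experiment 4, with an effect of -0.70 ± 0.10 (adjusted p = 2.11e-05). The effects on Snhg6, Gas5 and Snhg5 were -0.52, -0.40 and -0.39, and that on Atf3 was -0.71 ± 0.18 (adjusted p = 0.0201). Without the second or the third HA-Tnrc6a input of experiment 3 Atf3 missed the threshold, with adjusted p of 0.0522 and 0.0563. Atf3 reached no call within either experiment.

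HA beads also took these host gene RNAs from cells without the tag. In untagged cells Zfas1 was recovered at 1.96 to 2.54 times its input in experiment 3 and 2.75 to 3.68 times in experiment 4, above every tagged library. Snhg1 was at 2.05 to 2.79 and 3.65 to 4.85 times its input in untagged cells. Counts of host genes can also include the small nucleolar RNAs inside them, and Zfas1 overlaps Znfx1, whose reads cannot be told apart without counting by strand. The part of either in the result was not tested. Snhg15 went against the other host genes: its inputs went from 48.8, 47.5 and 47.2 to 102, 110 and 95.2 CPM in experiment 3, and it recovered more, with ratios of 1.45, 1.43 and 1.25 against 1.85, 1.61 and 1.64 in experiment 3 and 1.03, 0.902 and 0.948 against 1.51, 1.26 and 1.13 in experiment 4. Its effect was 0.37 ± 0.08 (adjusted p = 0.00496), which passed in 19 of 24 fits that left out 1 library.

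**Figure D4:**
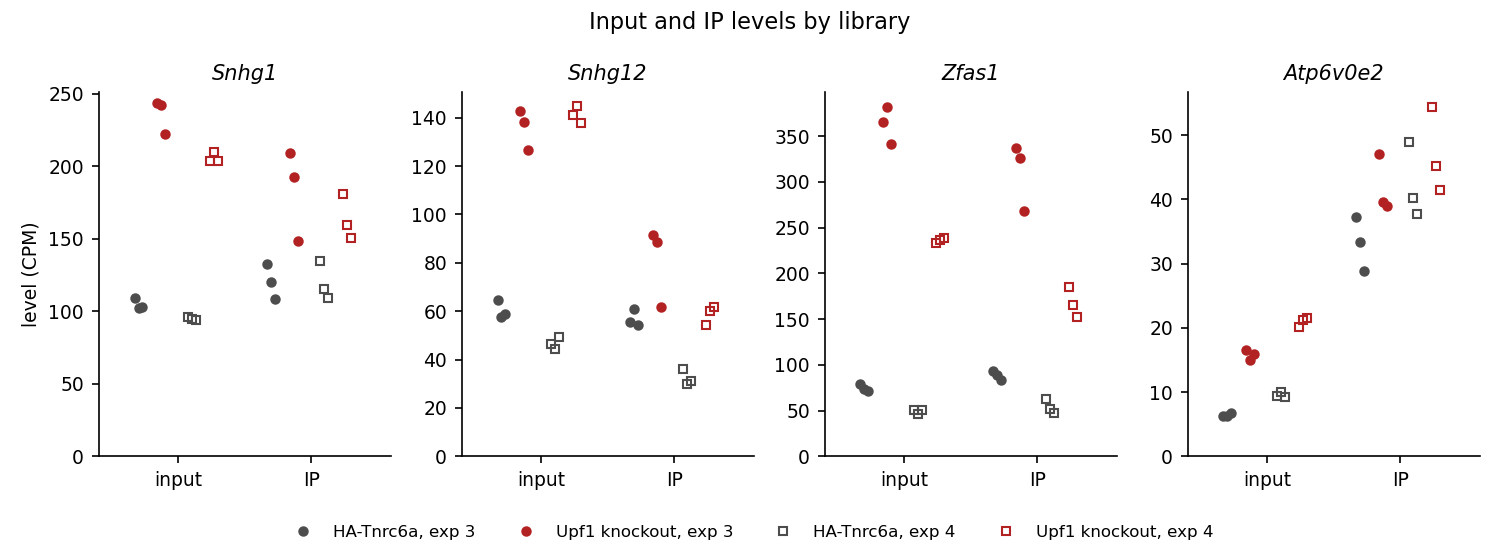
Levels (y axis, CPM) of Snhg1, Snhg12, Zfas1 and Atp6v0e2 in each input and IP library (x axis), for HA-Tnrc6a (grey) and Upf1 knockout (red) cells of experiment 3 (filled circles) and experiment 4 (open squares). The step between genotypes is larger in the inputs than in the IPs for each of the 4 genes.

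For mRNAs of the nonsense-mediated decay factors themselves, calls of a recovery effect were about as frequent as over all genes. Of the 20 nonsense-mediated decay factors, the input was higher in 10 and lower in 7 (50.0% and 35.0%, beside 22.4% and 28.4% of all genes). Upf1 alone (5.00%, beside 4.49% of all genes) had a called recovery effect, and the median was 0.01 beside 0.02. Upf1 mRNA had a recovery effect of 0.30 ± 0.06 (adjusted p = 0.00374), which was 0.63 in experiment 3 and -0.03 in experiment 4. It missed the threshold with library totals (0.21, adjusted p = 0.0601) and without the third HA-Tnrc6a input of experiment 3 (0.22, adjusted p = 0.0536).

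Of the 7 Argonaute and GW182 genes, Ago4 alone was called, and the median recovery effect was -0.02. Ago1, Ago3, Tnrc6b and Tnrc6c had effects between -0.09 and 0.10. Of 31 deadenylation and decapping factors, 3 (9.68%) recovered more and 2 (6.45%) less, beside 2.92% and 1.57% of all genes, with a median of 0.05. Cnot6, a catalytic deadenylase of CCR4-NOT, was strongly bound, with ratios of 15.5, 13.4 and 11.6 against 17.6, 16.3 and 16.7 in experiment 3 and 9.91, 8.30 and 7.95 against 13.4, 11.9 and 11.5 in experiment 4. The groups did not overlap, and the effect was 0.41 ± 0.08 (adjusted p = 0.00267). Dcp2, the decapping enzyme, went from 5.77, 5.05 and 4.82 to 4.07, 3.54 and 3.57 in experiment 4, and its values in experiment 3 overlapped (7.22, 6.02 and 4.89 against 5.72, 4.94 and 4.78). Its effect was -0.36 ± 0.09 (adjusted p = 0.0189) and that of its partner Dcp1a -0.36 ± 0.07 (adjusted p = 0.00152), each with a higher input (0.43 and 0.32) and an IP part near 0. Lsm14b, a protein of cytoplasmic RNA granules, had an effect of 0.34, which passed in 19 of the 24 fits that left out 1 library. The effect of 0.37 on Dcp1b passed in only 5 of those fits and was lost with each other scaling and with each other count filter.

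The list of mRNAs known as targets of microRNAs or of Trim71 in stem cells had a median recovery effect of 0.13 over 27 tested genes. Over all genes it was 0.02. Of the 27, 18 (66.7%, beside 53.6% of all genes) were above 0 and the input was lower in 15 (55.6%, beside 28.4%). Casp2, Egr1 and Lin28a (11.1%, beside 2.92% of all genes) were called, all as recovered more, at 0.39, 0.35 and 0.27. None of the 3 was called under every scaling, and they passed in 15, 9 and 14 of the 24 fits that left out 1 library. Cdkn1a, a cell cycle inhibitor and a target of both, had an effect of -0.05 (adjusted p = 0.880). Egr1, an immediate early transcription factor, fell from 83.6, 92.1 and 102 to 17.96, 19.7 and 20.1 CPM in the inputs of experiment 3. Its ratios were 1.86, 1.78 and 1.83 against 2.06, 2.56 and 2.97 there and 2.28, 2.00 and 1.93 against 2.74, 2.36 and 2.14 in experiment 4, where they overlapped. Its input fell by 2.05 and its IP by 1.71. The hairpin of miR-294 itself had an effect of -0.07 ± 0.34 (adjusted p = 0.952).

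On the lists of the early secretory pathway and the endoplasmic reticulum few members were called, and more lay above 0 than over all genes. Of 53 tested genes of the early secretory pathway, 41 (77.4%, beside 53.6% of all genes) were above 0, with a median of 0.12 beside 0.02; with library totals the median of all genes moved by -0.09. By edgeR 4 (7.55%) recovered more and 1 (1.89%) less, beside 2.92% and 1.57% of all genes. Beside Tmed9 these were Kdelr2, the receptor that returns resident proteins to the endoplasmic reticulum (0.42 ± 0.08, adjusted p = 0.00139), Sec62 of the translocon (0.35 ± 0.06, adjusted p = 0.000567) and Lman2, a lectin of cargo transport (0.28, not under every scaling); Tmed8 recovered less (-0.40 ± 0.07, adjusted p = 0.000748). Kdelr2 had ratios of 1.66, 1.73 and 1.52 against 2.16, 2.08 and 2.66 in experiment 3 and 2.06, 2.19 and 2.09 against 2.35, 2.85 and 2.87 in experiment 4. These did not overlap.

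Of 25 chaperones and sensors of the unfolded protein response, 19 (76.0%, beside 53.6% of all genes) were above 0, with a median of 0.11. By edgeR 2 (8.0%) recovered more and 1 (4.00%) less, beside 2.92% and 1.57% of all genes. Herpud1, a factor of endoplasmic reticulum-associated degradation, had ratios of 8.86, 7.70 and 6.997 against 9.66, 10.8 and 10.9 in experiment 3 and 9.98, 8.62 and 7.74 against 12.95, 11.9 and 10.9 in experiment 4. Its input did not pass the test (input part 0.05), and its effect was 0.43 ± 0.09 (adjusted p = 0.00254). The sensors Atf6b and Atf6 were called in opposite directions, at 0.37 and -0.28, each with an IP part of -0.02 and an input part of -0.38 and 0.27.

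On the next lists few members or none were called. Of 32 nucleolar ribosome biogenesis factors, Utp14a (0.39) and Wdr43 (0.24, not under every scaling) recovered more (6.25%, beside 2.92% of all genes). Dnttip2 recovered less (3.125%, beside 1.57% of all genes). Of 385 zinc finger genes named Zfp, 10 (2.60%) recovered more and 13 (3.38%) less, beside 2.92% and 1.57% of all genes, with a median of -0.04; with library totals 36 recovered less. The 91 cytosolic ribosomal protein genes fell in the lysate in 81 cases and had a median effect of -0.10, with 81 below 0. None was called by edgeR, while 2 above and 12 below 0 had an unadjusted p under 0.05, DESeq2 called 1 as recovered more and 4 as recovered less, and leaving out single libraries gave between 0 and 18 recovered less. Of 55 replication-dependent histone genes, of 13 mitochondrially encoded RNAs and of 14 nuclear long noncoding RNAs, edgeR called none; 2, 0 and 3 had an unadjusted p under 0.05, and DESeq2 called 0, 0 and 1.

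Some RNAs had a far more negative effect in experiment 3 than in experiment 4, and most of these were ones that HA beads took from cells without any tag. Dnttip2, a nucleolar protein (chr3:122274414-122285271), had ratios of 21.5, 24.6 and 24.01 in HA-Tnrc6a and 1.74, 2.97 and 3.24 in knockout IPs of experiment 3. In experiment 4 they were 0.812, 1.40 and 1.95 against 0.816, 1.14 and 1.05 and overlapped. Untagged cells gave 33.9, 40.6 and 49.8 in experiment 3 and 2.01, 2.12 and 2.53 in experiment 4, so in experiment 3 the untagged IPs were above every tagged one. Its effects of -3.13 and -0.47 did not pass edgeR's test of the difference between experiments (adjusted p = 0.500).

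Incenp, the inner centromere protein of the Aurora B complex (chr19:9872295-9899489), repeated this. Its ratios were 35.7, 30.7 and 24.4 against 3.10, 5.18 and 5.15 in experiment 3, 1.33, 1.52 and 1.69 against 1.97, 1.72 and 1.63 in experiment 4, and 36.8, 47.3 and 58.4 in untagged cells of experiment 3. Its recovery effect was -2.76 in experiment 3 and 0.23 in experiment 4, and that difference passed the test (adjusted p = 3.25e-05). Chaf1a, a subunit of the chromatin assembly factor (chr17:56040416-56068026, overlapping Ubxn6), had effects of -1.93 and -0.06 (adjusted p of the difference = 2.62e-05). Syne2, a giant protein of the nuclear envelope, had effects of -1.80 and -0.22 (adjusted p of the difference = 0.0306) with an untagged log2 ratio of only 0.43. Tet1, which oxidises methylated cytosine, had effects of -1.62 and -0.41, a difference that did not pass (adjusted p = 0.407).

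Of the 26 chromatin remodellers tested, 6 recovered less by edgeR, namely Atad2, Atrx, Atad2b, Ep400, Bptf and Baz2b (23.1%, beside 1.57% of all genes), with a median of -0.08 on the list. In experiment 3 all 6 had effects between -2.46 and -0.76, and in experiment 4 between -0.44 and -0.04. The difference between experiments passed the test for Atad2 and Atrx and missed it for Atad2b, Ep400, Bptf and Baz2b (adjusted p of 0.388, 0.342, 0.887 and 0.589). Their untagged log2 ratios averaged over the experiments were 1.03 to 3.61, so the list's calls coincide with bead-bound RNAs. Of 32 mitotic and chromosome proteins, Incenp and Mki67 recovered less (6.25%, beside 1.57% of all genes) and Kif23 more (0.34; 3.12%, beside 2.92%).

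Across all genes, the share that recovered less was larger among those with a ratio of at least 2-fold in untagged cells, a measure from libraries outside the comparison, than in the lower classes. It was 0.565% of 177 genes at a log2 ratio under -1, 1.52% of 10386 genes at a log2 ratio between -1 and 0, 1.33% of 8722 between 0 and 1, 4.24% of 590 between 1 and 2, and 14.3% of 91 at 2 or more. In the last class edgeR called 12 of the 91 as recovered less in experiment 3 and 0 in experiment 4 (22 and 2 at an unadjusted p under 0.05), with median effects of -0.45 and -0.14, and in the class from 1 to 2 it was 23 and 5. The difference between experiments was itself called in 23 genes (0.115%). Of these, 22 were more negative in experiment 3, 17 had an untagged ratio of at least 2-fold, and all of those 17 were among the 22; the one exception in sign was Upf1. The median effect over the 23 was -1.61 in experiment 3 and -0.008 in experiment 4.

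The IP libraries differed in how much of these RNAs they held. Over the 91 genes, the median ratio to input was 2.68, 2.46 and 2.19 in HA-Tnrc6a and 1.85, 1.83 and 1.83 in knockout IPs of experiment 3, which do not overlap, and 1.88, 1.68 and 1.76 against 1.67, 1.56 and 1.55 in experiment 4, which do not overlap either but lie closer. Ago2 knockout IPs gave 2.84, 2.87 and 2.73 in experiment 3 and 1.50, 1.65 and 1.48 in experiment 4, and untagged IPs 3.68, 3.88 and 3.93 and 3.61, 2.55 and 2.95. The part of bead binding in these losses was not tested beyond these values.

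**Figure D5:**
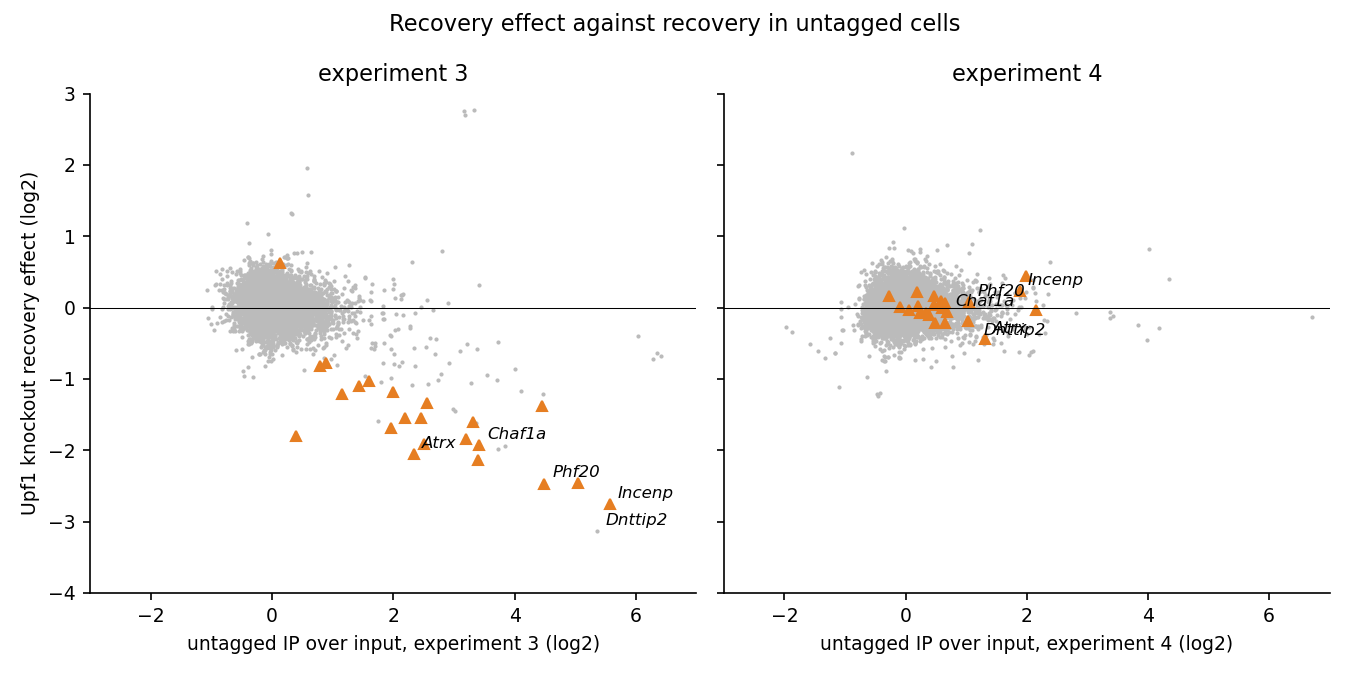
Recovery effect (y axis, log2) in experiment 3 (left) and experiment 4 (right) against the IP to input ratio in untagged cells of the same experiment (x axis, log2), for 11124 genes with an average log2 CPM of at least 3; triangles are genes whose effects differ between experiments. In experiment 3 the triangles hang below 0 at high untagged ratios, and in experiment 4 they lie around 0.

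What the called genes shared beyond the comparison was limited. The median deposited gene length was 4531 bases for genes that recovered more and 5175 for those that recovered less, beside 3331 for all. That length need not be the length of the transcript expressed here. The called genes were also better expressed, with median average log2 CPM of 5.90 and 5.81 beside 3.58. An untagged ratio of at least 2-fold was seen in 1.20% of genes that recovered more and 12.1% of those that recovered less, beside 3.41% of all. Length and level move together with the power of the test, and their part in the calls was not tested.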

How the data were processed

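RNA was sequenced as stranded total RNA libraries of inputs and HA bead eluates. Reads were handled with bcl2fastq 2.20 and STAR 2.7.3a on GRCm38 (mm10), per the submitters' processing notes; the header of the deposited length column names QuasR, and the counting settings, strand included, are not given in the sources used here. The authors deposited raw counts per gene for 20171 genes, and a second set of values per library, signal on the authors' own scaling, which is headed rpkm but in its values equals the deposited counts divided by 1 factor per library, not by gene length, and was used only as an alternative scaling. Column numbers 1 to 3 were read as experiment 3 and 4 to 6 as experiment 4, which the deposited table does not state in words.

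One group coefficient for each of 8 groups was fitted with edgeR 4.0.16 (R 4.3.3; TMM, filterByExpr with a minimum count of 10, robust quasi-likelihood F-tests, two-sided), and p-values were adjusted by Benjamini-Hochberg over 19966 genes; ± is the standard error of a log2 effect. Ratios from untagged and Ago2 knockout libraries came from a fit of all 48. The script was tested on simulated data. Alternatives were other scalings, filters, libraries, lysate and number blocks, DESeq2 1.42.0 and leaving out each library. Within each group the libraries differed by more than sampling noise, so all were counted.

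The naming rule chose Upf1, Tnrc6a and Ago2, those with the largest effects past the threshold (in the average, under each of 4 scalings, in each experiment and between experiments), and the leading members of 20 gene lists; not every gene it chose is reported here, and genes outside it are marked. Members and lists were chosen with earlier results of these data known. Protein features planned for the called genes were not used here.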

Additional observations from a re-analysis of the deposited data

Results flagged for a closer look

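For 9 of the genes that the naming rule chose the recovery effect differed between the experiments by edgeR's test of that difference, given here as experiment 4 less experiment 3 on the log2 scale. Incenp differed by 2.99 (adjusted p = 3.25e-05), Phf20, a reader of methylated histones and p53, by 2.54 (adjusted p = 0.000401), Atad2 by 2.42 (adjusted p = 0.0306) and Mphosph8, a subunit of the HUSH silencing complex, by 2.23 (adjusted p = 0.0226). Chaf1a differed by 1.87, Atrx by 1.61, Syne2 by 1.58 and Zfp518a, a zinc finger protein, by 0.996 (adjusted p = 2.62e-05, 5.52e-05, 0.0306 and 0.000475). The first 4 were lower in knockout cells of experiment 3 and near 0 in experiment 4, and those 4 were recovered from untagged cells in experiment 3. Chaf1a, Atrx and Zfp518a were also lower in experiment 3 (-1.93, -2.05 and -1.19), with effects of -0.06, -0.44 and -0.19 in experiment 4. Their untagged log2 ratios in experiment 3 were 3.41, 2.33 and 2.00, and that of Syne2 was 0.39. Phf20 had ratios of 20.6, 18.9 and 15.3 in HA-Tnrc6a and 2.60, 3.596 and 3.68 in knockout IPs of experiment 3, beside 14.0, 25.8 and 27.8 in untagged cells. Mphosph8 had 8.62, 7.16 and 5.19 against 1.26, 1.79 and 1.72, beside 8.96, 10.4 and 12.3 in untagged cells. In experiment 4 the ratios of Phf20 were 1.75, 2.08 and 2.33 against 2.06, 2.20 and 2.21, which overlap. Upf1 itself differed by -0.66 (adjusted p = 0.0145), with ratios of 0.646, 0.600 and 0.659 against 1.01, 0.962 and 0.972 in experiment 3 and 0.799, 0.953 and 0.937 against 0.887, 0.861 and 0.888 in experiment 4.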

How the results depend on the processing

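The 896 calls (583 more, 313 less recovered) changed in direction with the scaling and with the experiment. Genes recovered more numbered 352 with RLE size factors, 224 with library totals, 274 with the authors' scaling, 349 without a count filter and 257 in a fit of all 48 libraries, and genes recovered less 778 with library totals; the share recovered more was 65.1% with TMM, 52.8%, 22.4%, 37.3%, 47.5% and 36.5% in the same order, and the median of all genes moved by at most -0.09. In fits of experiment 3 alone 162 genes were called (17 more, 145 less; 10.5% more) and of experiment 4 alone 384 (289, 95; 75.3% more); as contrasts of the joint fit, added after seeing the data, 256 (137, 119) and 275 (169, 106). IPs without inputs gave 10034 calls (4931, 5103), and 1353 differing between experiments. An adjusted p under 0.01 left 402 (245, 157), and 12 differing between experiments, where DESeq2 gave 40. Leaving out 1 library gave 591 to 957 calls, 202 to 567 more and 238 to 606 less recovered, with 503 to 782 of the 896 kept, and 19 to 37 differing between experiments. In experiment 3, genes recovered more were 306, 269 and 202 without HA-Tnrc6a input replicate 1, 2 or 3, 343, 220 and 328 without HA-Tnrc6a IP replicate 1, 2 or 3, and 283 without knockout IP replicate 3. In experiment 4 they were 206 and 216 without HA-Tnrc6a input replicate 2 or 3, 206 without HA-Tnrc6a IP replicate 2 and 326 without knockout IP replicate 1. Genes recovered less were 517, 544 and 606 without HA-Tnrc6a IP replicate 1 of experiment 3, that of experiment 4, and knockout IP replicate 1 of experiment 4. The 37 differing between experiments came without HA-Tnrc6a IP replicate 3 of experiment 3.

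Some genes changed sign. With IPs alone, Gpr146 was at -0.019, Atp6v0e2 0.25, Snhg1 0.53, Snhg12 0.68, Zfas1 1.73, Atf3 0.48, Dcp2 0.069, Egr1 -1.71, Tmed8 0.072, Atf6b -0.017, Wdr43 -0.18 and Ago2 0.34, by construction, since the inputs are left out. In experiment 4 alone and as a contrast of the joint fit, Incenp was at 0.26 and 0.23, Phf20 0.10 and 0.072, Mphosph8 0.13 and 0.093 and Tnrc6a 0.036 and 0.0028. In the joint fit Upf1 was at -0.029 in experiment 4 and Ago2 at 0.038 in experiment 3; the cause was not tested. Replicate numbers pair inputs and IPs only by number: correlations of deviations had a mean of 0.00736, with 0 of 12 above 0.1. With a replicate block by lysate 946 genes were called (622, 324), and with the number within an experiment as a replicate block 1067 (711, 356). Depth limits Ago4 and Gpr146, whose inputs held few counts.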
